A study of Setaria viridis with 32 samples.

Results

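The change in transcript levels from anthesis to 8 days after anthesis (8 DAA) was compared between seed heads of the *Setaria viridis* ecotypes A.10 and ME034V. The comparison used 16 of the 32 libraries of the series, 4 for each ecotype at each of these stages, and every locus with more than 1 CPM (a count scaled to library size) in at least 3 of the 16 libraries, which left 24331 of 38334 loci. The other 16 libraries, taken at 50% seed head emergence and at 16 DAA, share no library with the comparison and are used to look up its loci. Both ecotypes are untransformed natural lines that were raised in a growth chamber, and each replicate is a pool of whole seed heads from 4 plants, so the p-values measure the spread between pools. For each locus the change in A.10 (8 DAA minus anthesis, log2) was subtracted from the change in ME034V, which is called the ecotype difference in the change. A positive value means that the locus rose more, or fell less, in ME034V than in A.10.

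After flowering, the cereal seed head turns from building flowers to filling grains. In crop seeds, sucrose generally leaves the phloem through cell-to-cell connections into maternal tissue, and transporters then move sugars across membranes towards the grain. SWEETs let sugars move down their gradient, and SUTs, which carry sucrose together with protons, take it up into cells. In the endosperm, ADP-glucose pyrophosphorylase (ADP-glc PPase) makes the glucose donor for starch, starch synthases extend the chains and starch branching enzymes add the branch points. Aquaporins, the channels that move water and some small solutes across membranes, fall into the PIP, TIP, NIP and SIP groups, with PIPs mostly in the plasma membrane and TIPs in the vacuolar membrane.

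Total counts ran from 4808433 to 21175874 per library, with a median of 8286264.5, and ME034V anthesis replicate 4 was the deepest. A.10 8 DAA replicate 1 stood apart from the other libraries of its group. Its log2 CPM correlated across loci with the anthesis mean of A.10 at r = 0.87. The other A.10 8 DAA libraries had 0.80, 0.81 and 0.83, so replicate 1 lay nearer to anthesis. The ME034V 8 DAA libraries correlated with the ME034V anthesis mean at 0.88, 0.86, 0.86 and 0.86. The study proposes that the ecotypes may differ in how long their seeds develop. A difference in pace was not tested, so it cannot be told apart here from a difference at a locus. Counts, and the values of genes whose call changed without A.10 8 DAA replicate 1, are given without that library too. It was singled out with these same data, and the ME034V 8 DAA libraries, with r from 0.86 to 0.88, were kept. Calls and adjusted p-values without it therefore show dependence on 1 library and are not separate evidence. Levels below are CPM scaled by the TMM factors of edgeR, and tests are edgeR quasi-likelihood tests with Benjamini-Hochberg adjustment over all loci tested. Approximate standard errors (SE) are the size of a log2 value divided by the square root of the F statistic. A whole seed head averages over all its tissues, so fewer cells of a type and less RNA per cell cannot be told apart.

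The genes that make starch, the sign of grain filling used here, had mostly risen by 8 DAA in both ecotypes. Of 22 tested genes of ADP-glc PPase, starch synthase and starch branching enzyme, 16 rose and 3 fell in A.10, and 13 rose and 4 fell in ME034V. Across all loci, 7033 rose (28.9%) and 7097 fell (29.2%) in A.10, together 58.1% of those tested, and 6302 rose (25.9%) and 6552 fell (26.9%) in ME034V, together 52.8%. Loci that passed in both ecotypes nearly always moved the same way, with 5205 rising and 5565 falling in both and 58 moving in opposite directions. A larger size of change in A.10 was the more frequent case, at 62.0% of all loci tested, 65.6% of those that rose in both and 71.3% of those that fell in both. The median rise of loci that rose in both was 0.83 in A.10 and 0.73 in ME034V on the log2 scale, and the medians of those that fell in both were -1.20 and -1.03.

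The change itself differed between the ecotypes at 502 loci, 2.06% of those tested (edgeR adjusted p under 0.05). At 300 loci (1.23%) the change was higher in ME034V and at 202 (0.83%) it was lower. Without adjustment 3901 loci had p under 0.05. The median size of the difference among the 502 was 1.31 on the log2 scale, with 329 above 1 and 155 above 2. The A.10 change was the larger at 395 of the 502, or 78.7%. Among the 300, 139 fell in both ecotypes, 77 fell in A.10 and did not pass in ME034V, 45 rose in ME034V and did not pass in A.10, 21 rose in both and 18 fell in A.10 but rose in ME034V. Among the 202, 91 rose in both, 60 rose in A.10 and did not pass in ME034V, 25 rose in A.10 but fell in ME034V, 22 fell in ME034V and did not pass in A.10, and 4 fell in both. The step tests and this test share libraries, and these classes are descriptions.

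**Figure D1:**
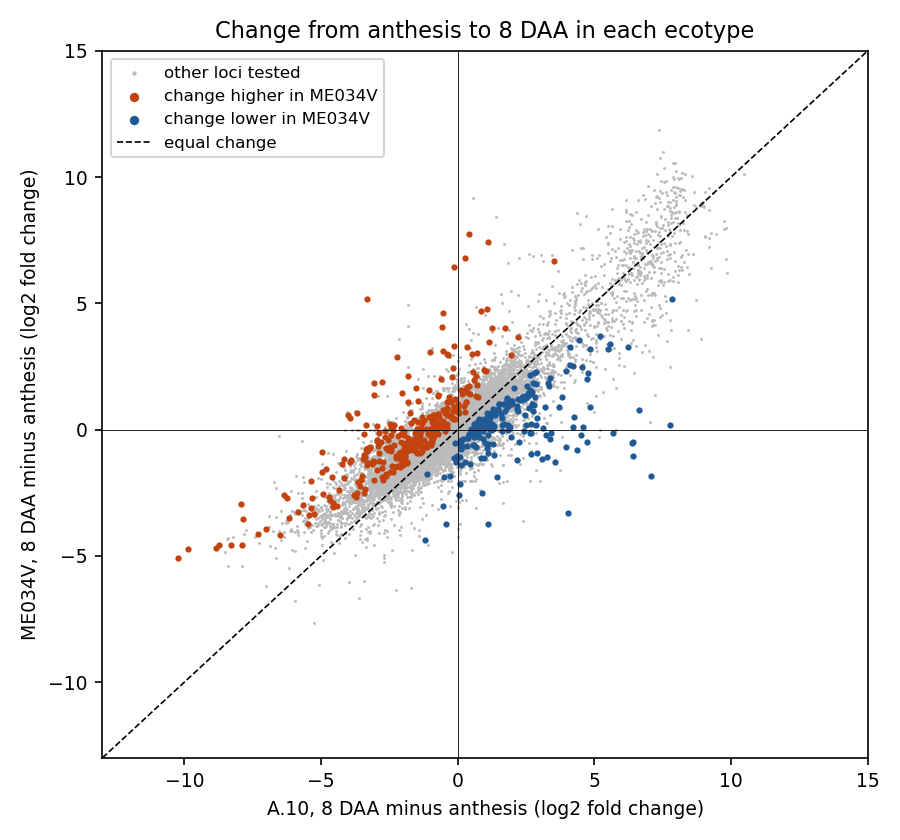
Log2 fold change from anthesis to 8 DAA in A.10 (horizontal axis) and in ME034V (vertical axis) for 24331 loci, with the 300 loci whose change was higher in ME034V and the 202 whose change was lower coloured and the dashed line marking equal change. Most coloured points below and left of the origin lie nearer to the horizontal axis than the line, which is the larger fall in A.10 of loci that fell in both ecotypes.

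The count of 502 depended on A.10 8 DAA replicate 1 more than on any other library. Without it 1788 loci passed, 1366 higher and 422 lower in ME034V, and 499 of the 502 were among them. Leaving out any of the other 15 libraries gave counts from 251, without A.10 anthesis replicate 4, to 505, without ME034V anthesis replicate 1. DESeq2 called 921 loci, with 491 of the 502 among them. Counts thinned to equal depth gave 337 loci, with 274 of the 502. The joint fit of all 32 libraries gave 537, with 378 of the 502. Under each alternative, every one of the 502 that was tested kept its sign. The alternatives reuse the same libraries, so a kept sign is not a separate test.

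**Figure D2:**
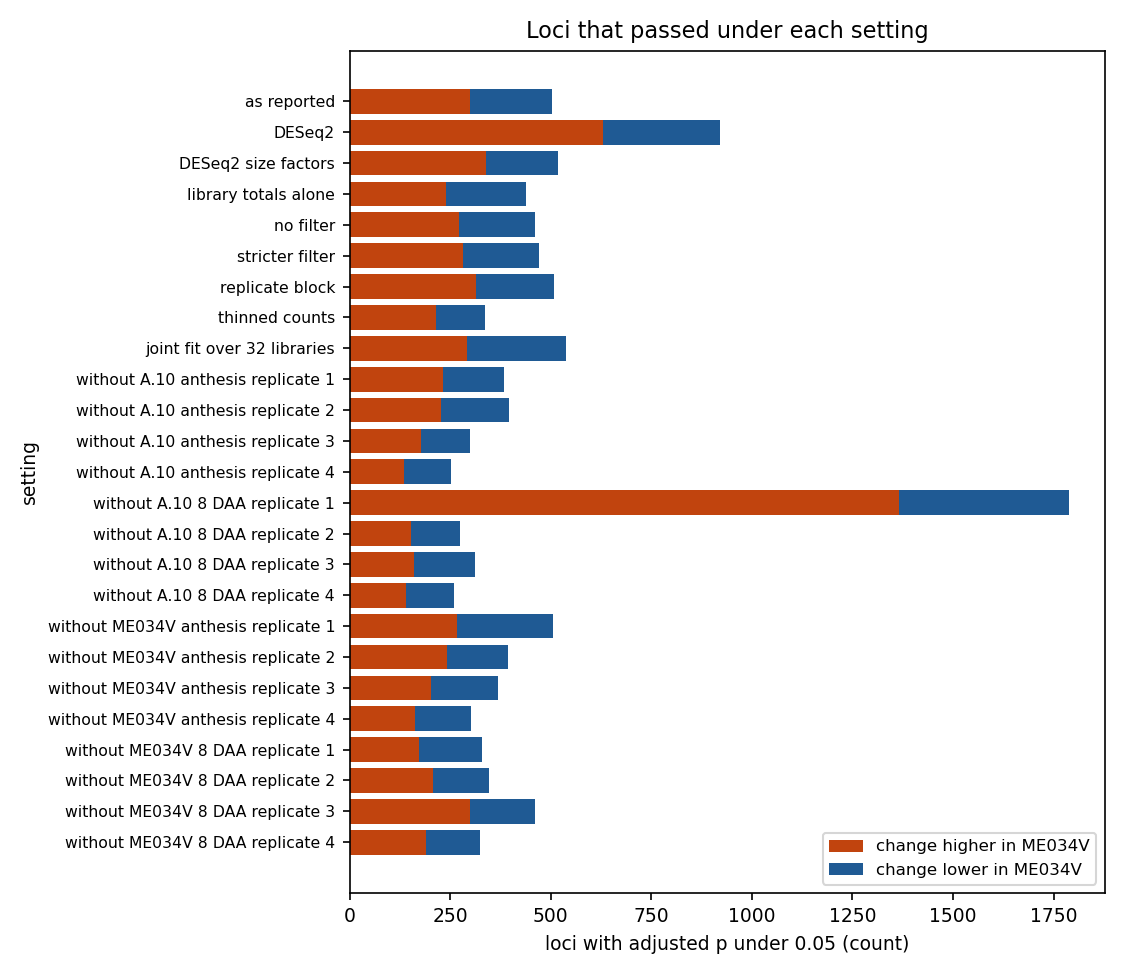
Number of loci whose change from anthesis to 8 DAA differed between ecotypes (horizontal axis, stacked by direction) under each setting (vertical axis). The bar without A.10 8 DAA replicate 1, at 1788, is the longest, and that without A.10 anthesis replicate 4, at 251, is the shortest.

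The ecotypes were also compared within each stage, with libraries shared with the test above. The 4 libraries of each ecotype did not overlap at 8 DAA for 366 of the 502 loci, or 72.9%, against 25.2% of all loci. At anthesis they did not overlap for 269, or 53.6%, against 20.3%. The 502 were chosen with these same libraries, so larger shares are built in and are not separate evidence. At anthesis 3648 of all loci differed between ecotypes (15%), and at 8 DAA 5678 (23.3%). Reads of both ecotypes were aligned to the same genome, and whether they mapped equally well at each locus was not tested. Of the 300 loci with a higher change in ME034V, 176 did not pass the ecotype test at anthesis and were higher in ME034V at 8 DAA. A further 62 were lower in ME034V at anthesis and did not pass at 8 DAA, and 12 were lower at anthesis and higher at 8 DAA. Of the 202 with a lower change, 67 were higher in ME034V at anthesis and did not pass at 8 DAA, 62 did not pass at anthesis and were lower at 8 DAA, and 37 were higher at anthesis and lower at 8 DAA.

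Genes of sugar transport, sugar metabolism and water transport were taken from the list in 17 families that the study collated, of which 173 genes passed the filter and 4 did not. Of these, 5 passed the test of the ecotype difference in the change, 3 higher and 2 lower in ME034V. That is 2.89% of the list, near the 2.06% of all loci. Without A.10 8 DAA replicate 1, 22 of the 173 passed, 17 higher and 5 lower, which is 12.7% of the list beside 7.36% of all loci in the same fit. The 4 listed genes that were not tested had 9 to 74 counts in all 16 libraries together and include *SvSWEET12*.

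*SvSWEET14a* (*Sevir.8G137700*, chromosome 8 from 24588148 to 24590611 in the *S. viridis* v2.1 annotation), of the SWEET clade that carries mainly sucrose, had the lowest p among the listed genes. At anthesis its levels in A.10 were 0.201, 0, 0.497 and 0.292 CPM, from 8 counts in all, and in ME034V 1.36, 0.725, 1.18 and 1.54 CPM. At 8 DAA they were 17.6, 25.9, 22.4 and 21.0 CPM in A.10 and 15.1, 10.3, 10.5 and 12.6 CPM in ME034V. Every A.10 library was thus below every ME034V library at anthesis and above every one at 8 DAA. It rose by 6.22 (SE 0.32) in A.10 and by 3.25 (SE 0.24) in ME034V on the log2 scale, and the difference in the change was -2.97 (SE 0.48, edgeR adjusted p = 0.0039). It passed under each of 24 alternatives, with values from -3.46 to -2.68.

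*SvSWEET4c* and *SvSWEET4a*, on which the series is centred, did not pass. *SvSWEET4c* (*Sevir.1G134200*), whose counterpart in maize carries hexoses, was at 98.3, 113, 118 and 114 CPM in A.10 and 99.2, 122, 143 and 94.1 CPM in ME034V at anthesis. At 8 DAA it was at 232, 264, 243 and 242 CPM in A.10 and 312, 282, 180.1 and 255 CPM in ME034V. The ecotypes overlapped at both stages, the rises were 1.14 and 1.17, and the difference was 0.03 with a 95% interval from -0.41 to 0.46 (edgeR adjusted p = 0.98). For *SvSWEET4a* (*Sevir.1G134500*) the difference was 0.41, with an interval from -0.08 to 0.89 (edgeR adjusted p = 0.41). It fell by 0.56 in A.10 and had a log2 value of -0.15 in ME034V (edgeR adjusted p = 0.45). Reads of these near-identical genes were kept only where they mapped to a single place, so their counts are uncertain. The same limit holds for other close relatives, PIPs included, and since counting ignored strand, reads of overlapping genes cannot be told apart.

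Of the 16 SWEET genes tested, 12 had positive and 4 negative differences, where 12072 of all loci were positive and 12259 negative. Their median was 0.05 beside -0.003 over all loci. *SvSWEET14a* alone passed, where 0.83% of all loci passed lower. *SvSWEET5*, named after its values were seen, had 1.65 (edgeR adjusted p = 0.14) and 2.44 without A.10 8 DAA replicate 1 (edgeR adjusted p = 0.0020). *SvSWEET15*, the SWEET with the highest mean CPM, fell in both ecotypes, with a difference of 0.32 (interval -0.31 to 0.95). All 4 SUT genes had positive values. *SvSUT3*, named after its values were seen, had 1.84 (edgeR adjusted p = 0.21) and 3.18 without A.10 8 DAA replicate 1 (edgeR adjusted p = 0.018). *SvSUT1*, which takes up sucrose in filling grains of other cereals, fell by 0.68 in A.10 and had a log2 value of -0.27 in ME034V that did not pass, and its difference of 0.41 did not pass either (edgeR adjusted p = 0.25). Hexose transporters had 12 positive and 3 negative values and a median of 0.14.

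Genes for starch synthesis had mostly negative values. Of the 22 genes of the 3 families 19 had negative values, where 12259 of all 24331 loci were negative. Their median was -0.25, and 1 passed lower, where 0.83% of all loci did. Without A.10 8 DAA replicate 1, 3 passed lower, 13.6% of the 22 beside 1.74% of all loci. The starch synthase *Sevir.3G171300* went from -0.42 (edgeR adjusted p = 0.054) to -0.43 (adjusted p = 0.029), and *Sevir.4G063400* from -0.33 (adjusted p = 0.16) to -0.39 (adjusted p = 0.047). *Sevir.3G171300* was also called by DESeq2, with the stricter filter, with the replicate block and without ME034V anthesis replicate 1. The gene that passed with all libraries, an ADP-glc PPase (*Sevir.3G134900*, chromosome 3 from 9030197 to 9035884), was at 236, 208, 220.0 and 213 CPM in A.10 and 179.6, 219, 176 and 209 CPM in ME034V at anthesis. At 8 DAA it was at 719, 838, 736 and 754 CPM in A.10 and at 509, 503, 479.7 and 397 CPM in ME034V. The ecotypes overlapped at anthesis, and at 8 DAA every ME034V library lay below every A.10 library. It rose by 1.80 (SE 0.10) in A.10 and 1.27 (SE 0.09) in ME034V, a difference of -0.53 (SE 0.13, edgeR adjusted p = 0.048). The call was made in 8 of 24 alternatives, always with the same sign, and was lost with the DESeq2 size factors, with library totals alone, with the replicate block and on leaving out 13 of the 16 libraries in turn.

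Among the other starch genes, the ADP-glc PPase with the highest mean CPM (*Sevir.6G130500*) rose by 3.48 in A.10 and 2.96 in ME034V. At 8 DAA it was at 1749, 2151, 1468 and 1794 CPM in A.10 and 1381, 1373, 1048 and 1023 CPM in ME034V, without overlap, and the difference in the change was -0.52 (edgeR adjusted p = 0.14). The starch branching enzyme *Sevir.1G181900* rose by 6.16 in A.10 and 5.10 in ME034V, with a difference of -1.07 (edgeR adjusted p = 0.13, and 0.021 without A.10 anthesis replicate 3). The starch synthase *Sevir.4G021900* rose by 7.40 and 7.19, and its difference of -0.21 had a wide interval, from -1.60 to 1.18. Its anthesis levels were uneven, with 49.4 CPM in A.10 replicate 3 and 7.92 to 12.1 CPM in the other 3 A.10 libraries. The difference was -1.24 without that library and 0.36 without ME034V anthesis replicate 2, so its direction turned with the library left out, and neither value passed.

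By family, ADP-glc PPase had 5 of 7 negative values (median -0.47), starch synthase 10 of 11 (-0.21) and starch branching enzyme 4 of 4 (-0.23), while all loci that rose in both ecotypes had a median of -0.09. Over the 24 alternatives the medians of these families stayed negative, from -0.56 to -0.31, from -0.35 to -0.15 and from -0.32 to -0.18. At 8 DAA 10 of the 22 genes were lower in ME034V and 1 was higher, where 10.7% of all loci were lower and 12.6% higher. At anthesis 2 were lower and 1 was higher, beside 7.85% and 7.14% of all loci.

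Aquaporins had mostly positive values. Of 28 genes 27 had positive values, where 12072 of all 24331 loci were positive. Their median was 0.46 beside -0.003 over all loci and 0.16 over loci that fell in both ecotypes. The test was passed by 2, both higher in ME034V, where 1.23% of all loci passed higher. In A.10, 17 aquaporins fell and 7 rose, where 29.2% of all loci fell and 28.9% rose, and in ME034V 10 fell and 9 rose, beside 26.9% and 25.9%. At 8 DAA 11 were higher and 2 lower in ME034V, where 12.6% of all loci were higher and 10.7% lower. At anthesis 1 was higher and 6 were lower, beside 7.14% and 7.85% of all loci. All 8 PIPs, 10 of 11 TIPs, all 6 NIPs and all 3 SIPs had positive values, with medians of 0.46, 0.93, 0.40 and 0.18. The exception was *SvTIP4;3*, at -0.71. Over the 24 alternatives 24 to 27 of the 28 were positive and the median ran from 0.35 to 0.53.

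The aquaporin with the lowest p was *SvPIP2;1* (*Sevir.2G128000*, chromosome 2 from 13158643 to 13161916), of a subgroup known for water transport. Its anthesis levels were 740.4, 683, 657 and 642 CPM in A.10 and 685, 707, 625 and 500.4 CPM in ME034V. At 8 DAA they were 279.8, 200.1, 240.0 and 229.7 CPM in A.10 and 377, 376, 390.3 and 495 CPM in ME034V. Anthesis levels overlapped, and at 8 DAA all ME034V libraries were above all A.10 libraries. It fell by 1.52 (SE 0.13) in A.10 and by 0.62 (SE 0.12) in ME034V, a difference of 0.90 (SE 0.17, edgeR adjusted p = 0.013) that passed under each of 24 alternatives.

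*SvNIP3;1* (*Sevir.9G193400*, chromosome 9 from 13652046 to 13656848), whose counterpart in rice is a boron channel, was the other aquaporin that passed. It was at 122, 100.2, 171 and 122 CPM in A.10 and 86.2, 83.4, 85.5 and 69.5 CPM in ME034V at anthesis. At 8 DAA it was at 90.3, 74.9, 84.1 and 109 CPM in A.10 and 87.4, 95.7, 108 and 120.3 CPM in ME034V. It was higher in all A.10 libraries at anthesis, and the ecotypes overlapped at 8 DAA. It fell by 0.52 in A.10 and had a log2 value of 0.35 in ME034V that did not pass, and the difference was 0.87 (SE 0.21, edgeR adjusted p = 0.040). It passed in 13 of 24 alternatives and was lost on leaving out 11 of the 16 libraries in turn, with adjusted p up to 0.093.

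Other aquaporins, chosen here after their values were seen, came near the threshold. *SvPIP2;7* had a difference of 1.18 (edgeR adjusted p = 0.052), *SvPIP1;1* of 0.48 (adjusted p = 0.064) and *SvNIP1;1* of 0.68 (adjusted p = 0.078). Without A.10 8 DAA replicate 1 they had (edgeR adjusted p in parentheses) 1.17 (0.034), 0.52 (0.024) and 0.88 (0.0010), and *SvTIP2;4* went from 1.25 to 1.83 (0.0041), *SvTIP4;1* from 1.08 to 1.96 (0.00996) and *SvTIP5;1* from 0.93 to 2.12 (0.0068). *SvPIP1;2*, the family member of highest mean CPM, fell by 1.87 in A.10 and by 1.49 in ME034V, with a difference of 0.39 (edgeR adjusted p = 0.23). Its level in A.10 8 DAA replicate 1, 445 CPM, lay above the 292, 309 and 311 CPM of the other A.10 libraries, and without that library the difference was 0.54 (edgeR adjusted p = 0.0061). Without that library 9 aquaporins passed, all higher in ME034V, which is 32.1% of the 28 beside 5.63% of all loci called higher in that fit. The library was singled out with these same data, so this share is not separate evidence.

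**Figure D3:**
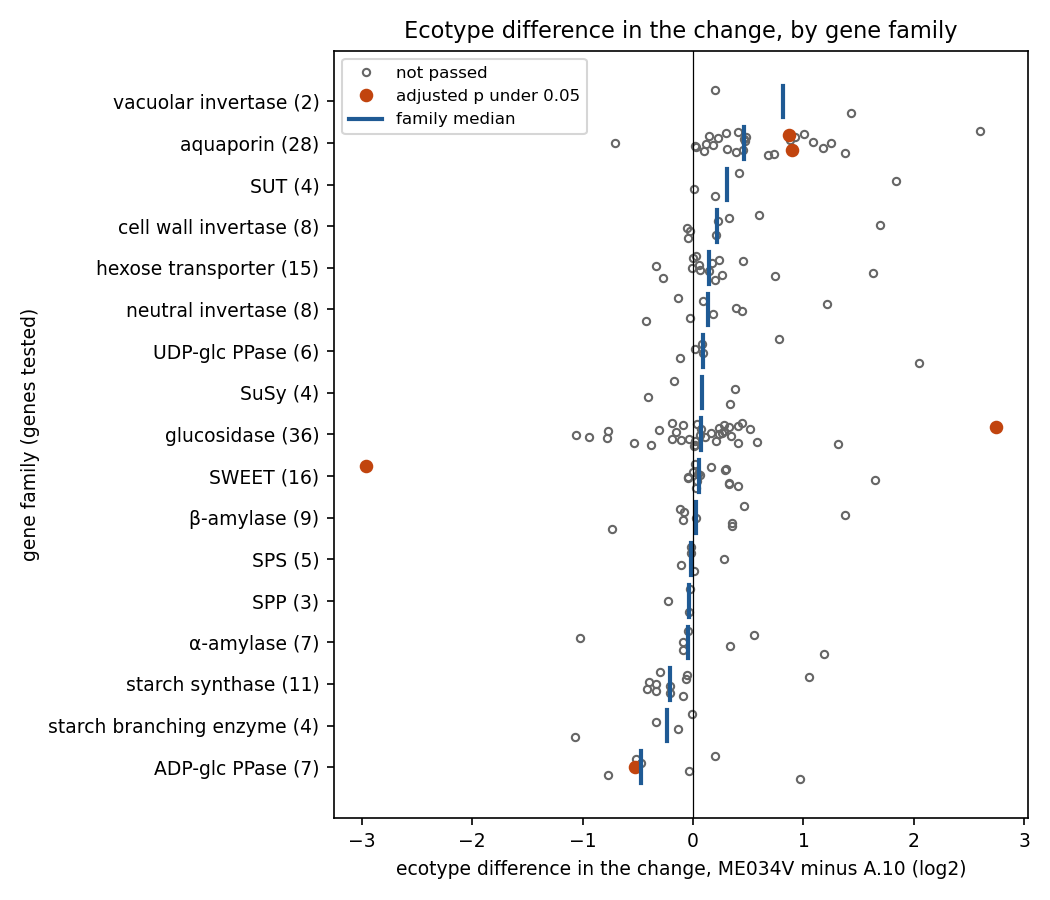
Ecotype difference in the change (horizontal axis, log2, ME034V minus A.10) for 173 listed genes by gene family (vertical axis, with the number tested), where filled points passed at adjusted p under 0.05 and blue bars are family medians. Of 28 aquaporins 27 lie right of 0, and of 22 genes in the 3 starch synthesis families 19 lie left of it.

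Among sugar-cleaving enzymes, the glucosidase *Sevir.9G090200* (chromosome 9 from 5515119 to 5517642) passed. Its anthesis levels were 35.0, 51.9, 30.2 and 40.0 CPM in A.10 and 66.2, 97.3, 43.8 and 54.2 CPM in ME034V. At 8 DAA they were 4.12, 1.16, 0.422 and 0.115 CPM in A.10, from 55 counts in all, and 28.8, 13.1, 13.3 and 16.1 CPM in ME034V. The ecotypes overlapped at anthesis and lay apart at 8 DAA. In the other 16 libraries this gene was higher in ME034V both before and after these stages. Its means were 1.05 CPM in A.10 and 13.1 CPM in ME034V at 50% emergence (log2 3.35, edgeR adjusted p = 0.0002). At 16 DAA they were 0.573 and 9.36 CPM (log2 4.08, edgeR adjusted p = 9.7e-05). From anthesis to 8 DAA the gene fell by 4.61 (SE 0.50) in A.10 and by 1.86 (SE 0.36) in ME034V, a difference of 2.74 (SE 0.63, edgeR adjusted p = 0.034). The call was made in 14 of 24 alternatives, with values up to 4.25 without A.10 8 DAA replicate 1. The other 35 glucosidases did not pass with all libraries, where 1.23% of all loci passed higher, and the family median was 0.07. The glucosidase with the highest mean CPM, *Sevir.2G265100*, had a difference of 0.41 with an interval from -0.74 to 1.55, and 1.00 without A.10 8 DAA replicate 1 (edgeR adjusted p = 0.20). Without that library the glucosidases *Sevir.1G346400* (1.99, edgeR adjusted p = 0.0097) and *Sevir.4G276200* (-1.24, edgeR adjusted p = 0.029) passed, from 1.31 and -1.06 with it.

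*Sevir.1G004700* is listed as a vacuolar invertase, an enzyme that splits sucrose inside the vacuole, but the study also holds that it may encode a fructosyltransferase of fructan synthesis. It fell by 3.29 in A.10 and by 1.86 in ME034V. It was at 47.6, 19.9, 13.9 and 8.28 CPM at 8 DAA in A.10 and at 68.0, 41.3, 32.5 and 52.4 CPM in ME034V. The difference of 1.43 did not pass (edgeR adjusted p = 0.16) but did without A.10 8 DAA replicate 1, which is the highest of its group (2.14, edgeR adjusted p = 0.0025). The β-amylase *Sevir.9G229200*, an enzyme of starch breakdown, had 1.38 (edgeR adjusted p = 0.22) and 2.101 without that library (edgeR adjusted p = 0.0037). It was at 114, 58.0, 20.8 and 17.2 CPM at 8 DAA in A.10 and at 196, 197, 182 and 210.5 CPM in ME034V.

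The remaining families had medians from -0.04 to 0.21, with no member past the test. Some members, named after their values were seen, passed under alternatives. The UDP-glucose pyrophosphorylase *Sevir.1G112300*, at 2.05 (edgeR adjusted p = 0.063), passed with DESeq2, with the replicate block, in the joint fit of all 32 libraries and without A.10 8 DAA replicate 1 (2.86, edgeR adjusted p = 0.0037). The neutral invertase *Sevir.7G108800*, at 1.22 (edgeR adjusted p = 0.086), passed without that library (1.37, edgeR adjusted p = 0.041), and the sucrose synthase *Sevir.4G039300*, at -0.41 (edgeR adjusted p = 0.096), passed with DESeq2. In each family, the member with the highest mean CPM is given. Among hexose transporters, *Sevir.5G089300* rose by 0.80 in A.10 and 0.46 in ME034V, a difference of -0.34 with an interval from -0.62 to -0.06 (edgeR adjusted p = 0.21). For sucrose-phosphate synthase *Sevir.6G120400*, of the pathway that makes sucrose, the interval was narrow, from -0.21 to 0.17. It ran from -0.29 to 0.22 for the sucrose-phosphatase *Sevir.2G396500*, from -0.07 to 0.83 for the sucrose synthase *Sevir.9G377500* and from -0.43 to 0.20 for the UDP-glucose pyrophosphorylase *Sevir.2G312500*. For the α-amylase *Sevir.5G298000* it was -0.57 to 0.40, for the cell wall invertase *Sevir.7G099200* -0.20 to 0.65 and for the neutral invertase *Sevir.1G193400* -0.13 to 0.50.

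**Figure D4:**
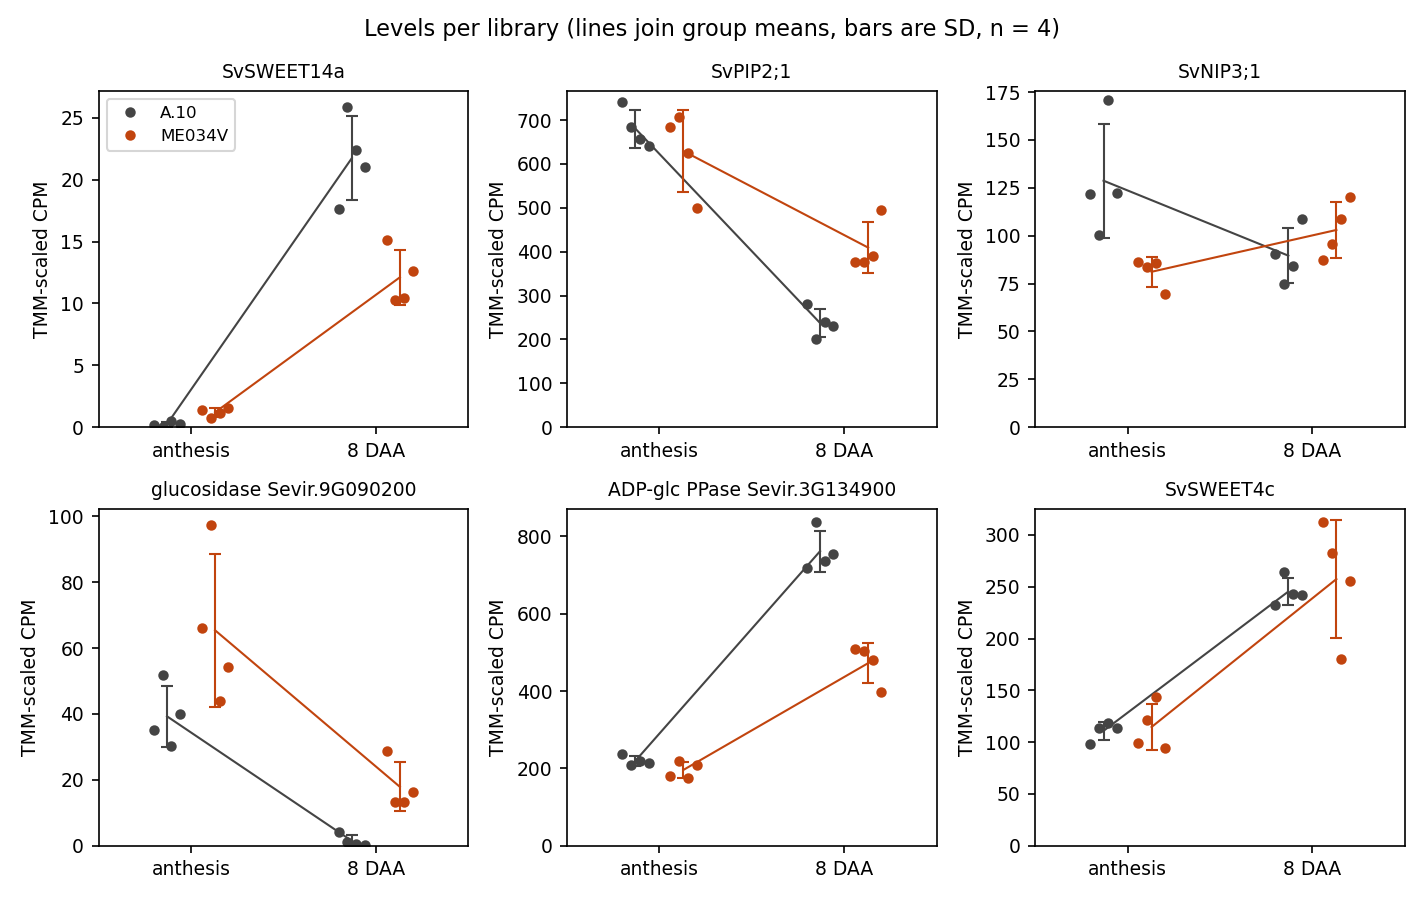
TMM-scaled CPM (vertical axis) at anthesis and 8 DAA in each of 4 libraries of A.10 (dark) and ME034V (orange) for the 5 listed genes that passed and for *SvSWEET4c*, with lines between group means and bars of SD. *SvSWEET14a* and the ADP-glc PPase climb more steeply in A.10, *SvPIP2;1* falls further in A.10, and the *SvSWEET4c* libraries of the ecotypes overlap.

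Outside the list, the files and the annotation table used here pair no locus with a name, so 4 loci with large differences are given by identifier. At *Sevir.9G001000* (chromosome 9 from 80663 to 81250), A.10 was at 19.7, 17.4, 21.5 and 20.4 CPM at anthesis and 24.4, 23.2, 20.3 and 26.1 CPM at 8 DAA. ME034V had 1 count in its 4 anthesis libraries and 3.97, 3.67, 3.74 and 4.39 CPM at 8 DAA. The ME034V ratio was 184, with a counting interval of 32.5 to 7337, and the fitted difference was 6.55 (edgeR adjusted p = 1.1e-06).

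*Sevir.7G337100* (chromosome 7 from 35005909 to 35007304) fell in both ecotypes, from 27.4 to 77.4 CPM at anthesis in A.10 to 1 count in all 8 DAA libraries. In ME034V it went from 42.8, 83.4, 48.9 and 67.2 CPM to 2.04, 1.66, 2.62 and 0.831 CPM. The fitted difference of 5.16 (edgeR adjusted p = 0.037) was called in 13 of 24 alternatives. Its size rests on that 1 count. In the libraries of 50% emergence and 16 DAA the value was smaller, at 1.59 (edgeR adjusted p = 0.046).

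Both loci named for a lower change in ME034V had few or no counts in A.10 at anthesis. *Sevir.8G224900* (chromosome 8 from 36758830 to 36761822) had 0, 0, 0.621 and 0 CPM at anthesis and 17.1, 34.8, 61.0 and 52.3 CPM at 8 DAA in A.10. ME034V held 18.9, 17.3, 17.8 and 16.1 CPM and then 19.3, 21.6, 16.9 and 20.3 CPM, and the difference was -7.61 (edgeR adjusted p = 1.8e-05). *Sevir.2G457200* (chromosome 2 from 47794819 to 47796773) had no count at anthesis in A.10 and 0.882, 1.16, 1.41 and 1.38 CPM at 8 DAA, which is at least 11.3-fold higher with 3 counts over the group as floor. In ME034V it was at 15.1, 12.1, 12.3 and 12.3 CPM and fell to 9.88, 8.06, 9.96 and 8.43 CPM. The fitted difference was -6.93 (edgeR adjusted p = 6.9e-05). Fitted values of loci with so few counts depend on the prior count of edgeR. Of the 502 loci 31 had a group with 3 counts or fewer, and the median size of the difference was 1.31 with those groups set to 3 counts and 1.24 without these loci.

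The 502 loci were spread over all 9 chromosomes, with shares of the loci tested from 1.56% on chromosome 1 to 4.29% on chromosome 8, where 62 of 1445 passed. Next to each other among tested loci, 461 stood alone, 17 pairs and 1 run of 3 were found, and 1 run of 4, on chromosome 8 from 40388370 to 40423862, was lower in ME034V throughout.

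Libraries of the other stages were used to look up the same loci. The labels do not say whether the stages were sampled from different plants. With 50% seed head emergence in place of anthesis and 16 DAA in place of 8 DAA, 1782 of 24317 loci passed the same test, or 7.33%, and 483 of the 502 were tested. Of these 469 had the same sign, or 97.1%, against 68.2% of all 23646 loci tested in both sets. The test was passed with the same sign by 231 (47.8%) and with the opposite sign by 0, as 128 of 287 higher and 103 of 196 lower loci. This look-up was added after the data were seen. The loci were chosen for a large value in the first set, and the medians of the higher and lower loci went from 1.34 to 1.197 and from -1.19 to -0.93. ME034V 16 DAA replicate 3 stood apart here, with starch synthesis genes such as *Sevir.6G130500* at 343 CPM against 964, 1077 and 1168 CPM in its group. Without it 3058 loci passed.

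**Figure D5:**
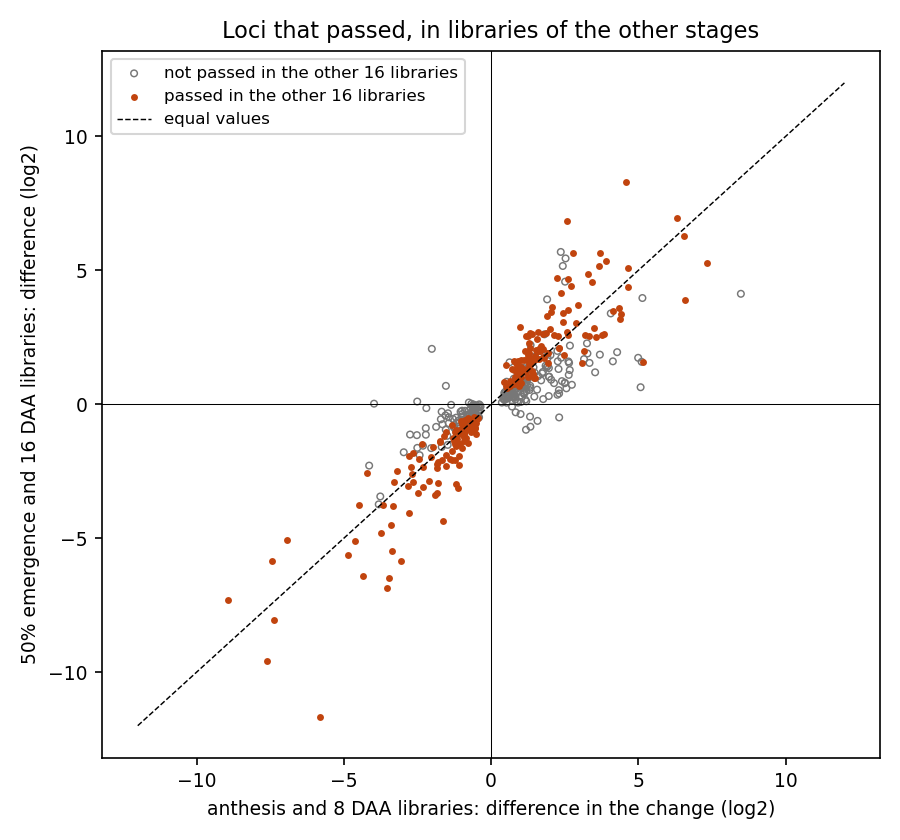
Ecotype difference in the change (log2) of the 483 loci tested in both sets, from anthesis and 8 DAA libraries (horizontal axis) and from 50% emergence and 16 DAA libraries (vertical axis), where filled points passed in the second set. Of the 483 points 469 lie where both values have the same sign.

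Of the named genes, *SvPIP2;1* had a value of 1.30 in those libraries (edgeR adjusted p = 0.00039) and *SvNIP3;1* 1.197 (edgeR adjusted p = 0.00195). *SvPIP2;1* was at 158, 161, 147 and 147 CPM at 16 DAA in A.10 and at 300.4, 341, 372 and 339.6 CPM in ME034V. *SvSWEET14a* had -1.79, the glucosidase 0.73 and the ADP-glc PPase *Sevir.3G134900* -0.22, none of which passed. *SvSWEET14a* was again higher in A.10 at 16 DAA, with 19.9, 17.8, 19.3 and 18.0 CPM against 9.28, 12.1, 8.59 and 11.4 CPM. At 50% emergence it had 3 counts in A.10 and 7 in ME034V over 4 libraries each, so its fitted value there rests on few counts. Among the loci outside the list, *Sevir.9G001000* had 6.30 (edgeR adjusted p = 1.3e-06) and *Sevir.7G337100* 1.59 (edgeR adjusted p = 0.046). *Sevir.8G224900* had -9.59 (edgeR adjusted p = 5.8e-12) and *Sevir.2G457200* -5.05 (edgeR adjusted p = 3.3e-05). *Sevir.1G004700*, the gene listed as a vacuolar invertase that may be a fructosyltransferase, did not pass above and had 3.01 (edgeR adjusted p = 0.00031). The glucosidase *Sevir.2G265100* did not pass above either and had 2.38 (edgeR adjusted p = 0.00021). Among aquaporins 23 of 28 were positive, with 11 passing higher and 1 lower, beside 4.4% and 2.92% of all loci. In the starch families 17 of 22 were negative with 1 passing lower. Of all 23646 loci tested in both sets, 12544 were positive and 11102 negative there. The starch values include ME034V 16 DAA replicate 3, which was low for starch synthesis genes such as *Sevir.6G130500*, and are not given without it. SWEETs had 8 positive and 8 negative values there, where 12 and 4 were found above, and of 3 SUTs tested 1 was positive. The list is the choice of the study, which used these libraries, and neither the families nor the list were tested as sets.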

How the data were processed

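Poly(A) RNA of whole seed heads was sequenced from 32 libraries. Per the file headers and the study's methods, the authors trimmed reads with Trim Galore, aligned them with Subjunc of Subread 1.6.2, kept uniquely mapped reads and deposited raw counts per locus from featureCounts 1.5.0-p1, unstranded, on the *S. viridis* v2.1 annotation. The deposited log2 FPKM tables, normalized within each ecotype, were not used. Counts of 16 libraries were normalized together by TMM and tested in R 4.3.3 with the edgeR 4.0.16 quasi-likelihood test over all loci that exceeded 1 CPM (counts scaled to library totals) in 3 libraries or more, as 1 model with 4 groups and contrasts for the ecotype difference in the change, each ecotype's change and the ecotype difference at each stage. Totals were 4808433 to 21175874 counts. Among 24 pairs of replicates none was identical. Scripts were tested on simulated data.

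The gene families are those of the study, and members and lists were chosen with earlier results of these data known. Named genes are listed genes past the test (up to 24), the member of each family with the highest mean CPM, *SvSWEET4a*, *SvSWEET4c* and, among other loci, the 2 largest positive and 2 largest negative differences with a group mean of at least 10 CPM and no overlap of ecotypes at a stage. CPM is not scaled to length, so levels of different genes are not compared. The RefSeq table matched 0 loci, so no other locus is named and no cell type markers were used. Alternatives were DESeq2 1.42.0, its size factors, library totals, no filter, a stricter filter of 5 CPM in 4 libraries, a replicate block, counts thinned to equal depth, a joint fit of 32 libraries and leaving out each library.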

Additional observations from a re-analysis of the deposited data

Results flagged for a closer look

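Among 116 sets of 4 libraries scanned, 12 had a library far from the other 3, where chance gives about 1 in 20. At *Sevir.9G001000*, *Sevir.7G337100* and *Sevir.8G224900* the other 3 libraries held 0 counts, so any count sets a library apart. Those flags rest on 1, 1 and 5 counts. The chance rate does not cover such sets, and the 12 were not tested against it. The total of ME034V anthesis replicate 4, 21175874 counts, was the highest of its group. Single libraries also stood apart at *Sevir.2G128000* (*SvPIP2;1*, 494.7 CPM in ME034V 8 DAA replicate 4), *Sevir.9G193400* (*SvNIP3;1*, 69.5 CPM in ME034V anthesis replicate 4) and *Sevir.1G269400* (*SvPIP1;2*, 445 CPM in A.10 8 DAA replicate 1). The hexose transporter *Sevir.5G089300* was at 111 CPM in ME034V anthesis replicate 4. In A.10 anthesis replicate 3 *Sevir.1G004700*, listed as a vacuolar invertase, was at 254 CPM, the starch synthase *Sevir.4G021900* at 49.4 CPM and *Sevir.8G224900* at 0.621 CPM. *Sevir.4G021900* was at 34.9 CPM in ME034V anthesis replicate 2. In ME034V anthesis replicate 1 *Sevir.9G001000* was at 0.151 CPM and *Sevir.2G457200* at 15.1 CPM, and *Sevir.7G337100* was at 0.0980 CPM in A.10 8 DAA replicate 1. The cause of these values was not tested.

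The change from anthesis to 8 DAA differed between ecotypes at 502 loci by the edgeR test of the difference itself. Among named genes the log2 differences were -2.97 for *SvSWEET14a* (*Sevir.8G137700*), 0.90 for *SvPIP2;1*, 2.74 for the glucosidase *Sevir.9G090200*, 0.87 for *SvNIP3;1* and -0.53 for the ADP-glc PPase *Sevir.3G134900*. They were 6.55 for *Sevir.9G001000*, 5.16 for *Sevir.7G337100*, -7.61 for *Sevir.8G224900* and -6.93 for *Sevir.2G457200*.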

How the results depend on the processing

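Counts of loci that rose or fell in each ecotype, or differed between ecotypes at a stage, stayed within 1.5 times under every alternative. DESeq2 called 921 loci for the difference in the change (629 higher in ME034V) and 12 listed genes (8 higher and 4 lower). Listed genes with a lower change numbered 1 with DESeq2 size factors and with library totals alone. Thinned counts gave 122 lower loci, and 1098 calls in the other 16 libraries. The joint fit of 32 libraries called 8 listed genes, 6 of them higher. Leaving out a library gave 251 to 1788 loci, 136 to 1366 higher and 115 to 422 lower. The lowest counts were without A.10 anthesis replicates 4 (251) and 3 (299), A.10 8 DAA replicates 4 (259), 2 (275) and 3 (312), ME034V anthesis replicate 4 (302) and ME034V 8 DAA replicates 4 (324) and 1 (328). It gave 2 to 22 listed genes, with 1 to 17 higher and 1 to 5 lower, and 1188 to 3058 calls in the other 16 libraries. The cause was not tested. Of 672 values of named genes under the alternatives, 48 lost and 4 gained a call, and 17 turned sign without passing the test. These were of *Sevir.6G120400* (0.0064 with DESeq2, 0.00035 with its size factors and -0.0477 to 0.0115 on leaving out a library) and, on leaving out a library, *Sevir.4G021900* (-1.24 to 0.36), *Sevir.5G298000* (-0.187 to 0.0389), *Sevir.2G396500* (-0.109 to 0.0155) and *SvSWEET4c* (*Sevir.1G134200*, -0.0811 to 0.172).

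With the replicate number as a block, 507 loci passed (313 higher and 194 lower), of which 418 were among the 502. The numbers mark no shared origin in the labels. Deviations of libraries with the same number correlated at -0.22 to 0.46, and 8 of 16 libraries correlated best with their own number. No chance level was worked out for these values, and a shared batch was not tested. The depth limits loci with few counts, such as *SvSWEET14a* at anthesis.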
